A study of Mus musculus with 6 samples.

Results

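The markers described here are 10 genes that label mesangial cells and pericytes: Pdgfrb, Itga8, Rgs5, Notch3, Gata3, Des, Cspg4, Mcam, Serpine2 and Ebf1. They were taken by gene symbol from a table of 23396 genes, and all 10 were present and deep enough to test. The study compared right kidneys of male mice aged 6 months. One group of 3 mice was homozygous for the Far2 knockout allele on C57BL/6N (strain C57BL/6N-Far2tm2a(KOMP)Wtsi/2J), and the other group of 3 was wild-type C57BL/6N. Far2 encodes a fatty acyl-CoA reductase, and the labels name no agent or treatment for either group. RNA came from whole frozen kidney, so every value is a sum over all kidney cell types, and fewer cells of a type cannot be told apart from less RNA per cell.

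Mesangial cells hold the capillary loops of the glomerulus together, contract, and turn over the mesangial matrix. Pericytes wrap the capillaries between the tubules, and both are mural cells that arise from the renal stroma and depend on PDGF-B, made by endothelial cells and received by the PDGF receptor beta. No one of the 10 genes is restricted to these cells. In the adult mouse kidney Gata3 is also made by collecting duct cells, Mcam by endothelium and smooth muscle, Des by smooth muscle, and Ebf1 by fat and B cells.

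The libraries held from 15261362 to 20631158 fragments, with wild-type library 1 the deepest and knockout library 1 the shallowest. The deposited numbers 0, 1 and 2 name libraries within a group and match no animal. Far2 had few fragments, 19 to 31 in the knockout libraries and 22 to 40 in the others, and these gene totals do not check the genotype. Wild-type library 0 stood apart in injury and inflammation genes: Havcr1, which encodes KIM-1, reached 21.5 CPM there and 0.617 to 0.916 CPM in the other 5 libraries. Knockout library 2 stood apart in fat genes: Ucp1, the uncoupling protein of brown fat, was at 21.1 CPM there and at 0.379 to 4.02 CPM in the other 5. CPM is a gene's fragment count scaled to the library size, itself adjusted by TMM, and is used below to compare 1 gene between libraries. FPKM, the authors' value that is scaled to transcript length as well, is used to compare levels between genes.

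All 10 markers had a lower mean in knockout, beside 51.7% of all genes tested, with log2 fold changes from −0.17 for Mcam to −0.42 for Des and Serpine2. With p-values adjusted over the 14354 genes tested (Benjamini-Hochberg), edgeR's quasi-likelihood test called no marker (adjusted p = 0.599 to 0.689) and 0% of all genes. DESeq2 called 0 of the markers and 12 of the 18727 genes it was given. At an unadjusted edgeR p under 0.05, 7 of the 10 were lower in knockout, against 5.14% of all genes tested. That count was 3 without wild-type library 1, also 3 when knockout library 1 was left out, and 4 when knockout library 2 was. The share of all genes was not computed with a library left out, so these counts have no background. The median log2 fold change of the 10 was −0.34, and that of all genes was −0.01. All 3 knockout libraries lay below all 3 wild-type libraries for 7 markers, Itga8, Rgs5, Notch3, Des, Cspg4, Serpine2 and Ebf1, against 6.96% of all genes. By the deposited FPKM this held for 5 markers, without Notch3 and Cspg4, against 6.52% of all genes. Since the genes were chosen with results of these libraries known, these counts are a description. The fragments behind 1 value ranged from 67 (Gata3, knockout library 1) to 1051 (Pdgfrb, wild-type library 1).

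**Figure D1:**
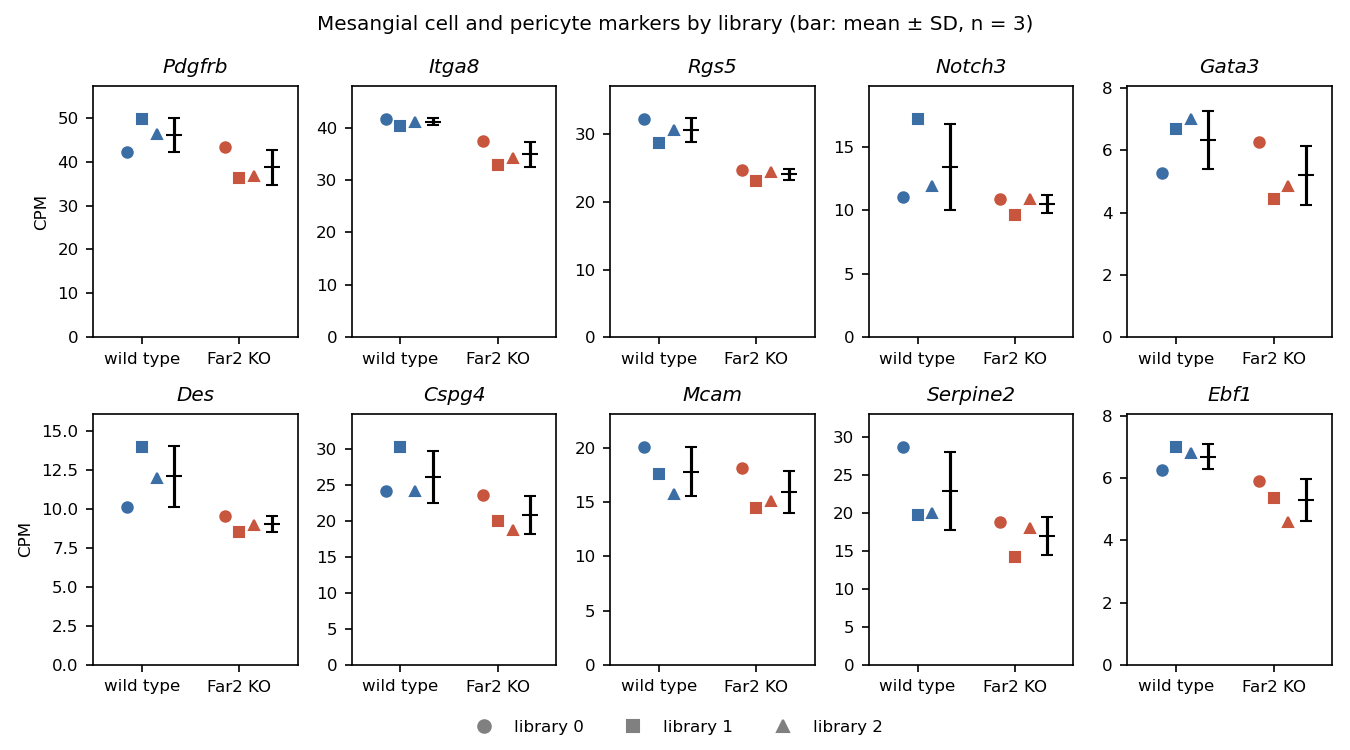
CPM of each marker (vertical axis, from 0) in the 3 wild-type (blue) and 3 Far2 knockout (red) libraries, with the mean and SD of each group in black. The groups are apart for Rgs5, at 28.7 to 32.3 CPM in wild type and 23.1 to 24.7 CPM in knockout, and overlap for Pdgfrb, Gata3 and Mcam.

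RefSeq promoter sequences (assembly GRCm38.p6) were found for 9 of the 10 genes, at 10 start sites, 2 of them in Ebf1. The 250 bases before the start were searched on both strands for 4 motifs that do not overlap each other in these windows. They were GTGGGAA for RBPJ, the factor that Notch signalling acts through, AGATAA for the GATA family, the CArG box for serum response factor, and, for the EBF family, TCCC followed after any 2 bases by the letters GGGA. The motif AGATAA was found for Rgs5 only among these starts and is present in 9.99% of 32851 promoters of the same length. GTGGGAA was found at 1 start of Ebf1 and is present in 5.42% of promoters. None of these 10 starts held the EBF motif (0.779% of promoters) or the CArG box (1.47%). The starts with a match, and that of Serpine2, the second most abundant marker per length, are shown 5′ to 3′ with the matched bases in capitals, here as the reverse complement of the motif. The Rgs5 window is chr1:169655251-169655500 on the plus strand, the Ebf1 window is chr11:44619978-44620227 on the plus strand and the Serpine2 window is chr1:79858666-79858915 on the minus strand.
Rgs5: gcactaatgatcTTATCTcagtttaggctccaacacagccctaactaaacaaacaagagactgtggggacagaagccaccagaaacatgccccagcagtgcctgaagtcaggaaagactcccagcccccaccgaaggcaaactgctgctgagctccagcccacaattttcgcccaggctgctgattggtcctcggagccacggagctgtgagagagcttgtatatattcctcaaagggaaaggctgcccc
Ebf1: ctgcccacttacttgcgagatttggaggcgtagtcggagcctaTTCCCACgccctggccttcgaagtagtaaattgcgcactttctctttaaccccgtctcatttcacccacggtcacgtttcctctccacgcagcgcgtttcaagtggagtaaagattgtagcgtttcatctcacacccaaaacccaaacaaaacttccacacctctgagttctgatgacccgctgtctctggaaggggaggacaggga
Serpine2: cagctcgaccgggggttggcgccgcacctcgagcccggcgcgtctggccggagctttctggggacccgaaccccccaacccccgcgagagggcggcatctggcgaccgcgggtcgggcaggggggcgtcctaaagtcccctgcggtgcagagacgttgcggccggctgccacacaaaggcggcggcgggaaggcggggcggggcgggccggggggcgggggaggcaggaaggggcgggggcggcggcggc
These windows differ in base composition, with 53.6% G and C for Rgs5, 52% for this start of Ebf1 and 78.8% for Serpine2, against a median of 52.4% over all promoters.

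Pdgfrb encodes the receptor tyrosine kinase for PDGF-B and is the defining receptor of mural cells. It lies on chromosome 18, 61045150 to 61085061, plus strand (GENCODE, GRCm38), and its longest coding transcript has 24 exons. Wild-type libraries 0, 1 and 2 were at 42.2, 49.8 and 46.4 CPM and knockout libraries at 43.3, 36.2 and 36.7 CPM. Knockout library 0 was above wild-type library 0, so the groups overlapped. The knockout level was 0.839 times the wild-type level (95% confidence interval 0.723 to 0.975), a log2 fold change of −0.25 ± 0.096 (SE; edgeR adjusted p = 0.599).

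The PDGF ligands and the other receptors gave a mixed picture: of 5 tested, 4 were lower and 1 higher in knockout, with a median log2 fold change of −0.06. Pdgfb, a ligand of this receptor but not its only one, was at 17.2, 18.5 and 16.7 CPM in the wild-type libraries and at 14.2, 13.2 and 14.2 CPM in knockout. Its groups did not overlap (log2 fold change −0.33 ± 0.087, SE; edgeR unadjusted p = 0.00349, adjusted p = 0.599), and it was the only gene of this list with an unadjusted p under 0.05. Pdgfa, Pdgfc and Pdgfd differed little, at log2 fold changes of −0.06, 0.08 and −0.02. Pdgfra, the receptor of interstitial fibroblasts, averaged 83.9 ± 4.74 CPM (SD, n = 3) across wild-type kidneys and 77.3 ± 7.65 CPM in knockout.

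Notch3 encodes the Notch receptor of mural cells, which is activated by Jag1 on a neighbouring cell. It lies on chromosome 17, 32120820 to 32166852, minus strand, with 33 exons in its longest coding transcript. Wild-type libraries were at 11, 17.2 and 11.9 CPM and knockout libraries at 10.9, 9.64 and 10.9 CPM. Wild-type library 1 was well above the other 5, and the gap between the remaining wild-type libraries and knockout was narrow. The log2 fold change was −0.35 ± 0.17 (SE; edgeR adjusted p = 0.603) and was −0.12 without wild-type library 1. By FPKM, knockout library 0 and wild-type libraries 0 and 2 all stood at 1.23.

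Of 21 tested genes of the Notch pathway, 18 were lower and 3 higher in knockout, with a median of −0.14, beside 51.7% of all genes that were lower. Those with an unadjusted p under 0.05 were Notch2, Heyl and Maml1, all lower, and none passed after adjustment. Heyl, a Notch target in mural cells, averaged 3.45 ± 0.86 CPM (SD, n = 3) across wild-type kidneys and 2.39 ± 0.27 CPM in knockout. The groups overlapped for Heyl and Notch2. Notch2, a receptor related to Notch3, averaged 114 ± 12.3 and 96.1 ± 7.16 CPM, and the coactivator Maml1 23.1 ± 1.23 and 19.9 ± 1.71 CPM. Jag1 averaged 33.2 ± 1.12 and 30.5 ± 5.80 CPM and Notch1 30.2 ± 3.38 and 26.4 ± 3.07 CPM, with overlap in both.

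Itga8 encodes integrin alpha 8, which pairs with integrin beta 1 and anchors mesangial cells to matrix ligands such as nephronectin. It lies on chromosome 2, 12106632 to 12301922, minus strand. Wild-type libraries were close together at 41.7, 40.4 and 41.1 CPM, and knockout libraries were at 37.5, 32.9 and 34.3 CPM. All 3 knockout libraries were below the wild-type range, and the log2 fold change was −0.23 ± 0.077 (SE; edgeR adjusted p = 0.599), a ratio of 0.85 with a 95% confidence interval of 0.754 to 0.958. The antisense gene E030013I19Rik overlaps Itga8 and held 3 to 8 fragments, beside 495 to 851 for Itga8. The partners were close to equal: Itgb1 averaged 320 ± 27.7 CPM in wild-type kidneys and 328 ± 17.6 CPM in knockouts (SD, n = 3), and Npnt, which encodes nephronectin, 82.9 ± 10 and 82.0 ± 5.31 CPM. Among the 6 tested partners and ligands, 5 were lower, beside 51.7% of all genes. Fn1, fibronectin, had the smallest p (log2 fold change −0.45 ± 0.15 SE, edgeR adjusted p = 0.599).

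Cspg4 encodes the NG2 proteoglycan, a surface protein used to identify pericytes, on chromosome 9, 56865033 to 56899870, plus strand. Wild-type libraries were at 24.1, 30.3 and 24.1 CPM and knockout libraries at 23.6, 20 and 18.7 CPM. Knockout library 0 was just below the lowest wild-type libraries, and by FPKM it was above wild-type library 2 (2.38 against 2.23). The log2 fold change was −0.34 ± 0.12 (SE; edgeR adjusted p = 0.599) and was −0.21 without wild-type library 1.

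Mcam encodes the adhesion molecule CD146 of pericytes and endothelium, on chromosome 9, 44134469 to 44142727, plus strand. Its libraries were at 20.1, 17.6 and 15.7 CPM in the wild-type libraries and at 18.1, 14.4 and 15.1 CPM in knockout, with overlap. It had the smallest difference of the 10, a log2 fold change of −0.17 ± 0.12 (SE; edgeR adjusted p = 0.689). The 95% confidence interval of the ratio ran from 0.738 to 1.07. Without wild-type library 0, in which Mcam was highest, the log2 fold change was −0.07. Leaving out knockout library 1 gave −0.11 and knockout library 0 gave −0.27.

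Rgs5 encodes a GTPase-activating protein that shortens signalling by G protein-coupled receptors, such as those for vasoconstrictors, and is one of the most used pericyte markers. It lies on chromosome 1, 169655501 to 169695813, plus strand, with 5 exons in its longest coding transcript. Wild-type libraries were at 32.3, 28.7 and 30.7 CPM and knockout libraries at 24.7, 23.1 and 24.4 CPM. The groups were further apart than the libraries within either group. The knockout level was 0.788 times the wild-type level (95% confidence interval 0.696 to 0.891), and the log2 fold change of −0.34 ± 0.080 (SE) had the smallest unadjusted p of the 10 (edgeR, 0.00163; adjusted p = 0.599). With each library left out in turn it stayed between −0.30 and −0.39. In the authors' deposited table its q was 0.183, and the q of the 10 markers ranged from 0.103 for Serpine2 to 0.974 for Mcam. The authors marked 88 of 13404 tested genes as significant, and 0 of these were markers.

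Of the other RGS proteins of its family, 3 of 8 were deep enough to test. Rgs4, also made by mural cells, was at 5.31, 4.36 and 3.18 CPM in the wild-type libraries and at 2.11, 2.66 and 2.64 CPM in knockout, without overlap (log2 fold change −0.81 ± 0.22, SE; edgeR unadjusted p = 0.00468, adjusted p = 0.599). Rgs2 and Rgs3 had log2 fold changes of −0.14 and 0.17.

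Des encodes desmin, the intermediate filament of muscle and of contractile mural cells, on chromosome 1, 75360329 to 75368579, plus strand. Wild-type libraries were at 10.1, 14 and 12 CPM and knockout libraries at 9.56, 8.51 and 9 CPM. The knockout libraries were tightly grouped below a wild-type group that spread more widely. The log2 fold change was −0.42 ± 0.13 (SE; edgeR adjusted p = 0.599), a ratio of 0.749 with a 95% confidence interval of 0.609 to 0.921. All 6 tested filament partners had a lower mean (median log2 fold change −0.21), beside 51.7% of all genes. Vim, vimentin, averaged 35.9 ± 9.17 CPM in wild-type kidneys and 27.5 ± 3.14 CPM in knockouts (SD, n = 3), and was highest in wild-type library 0 at 46.5 CPM. Plec, the linker plectin, averaged 93.9 ± 11.9 and 79.1 ± 8.69 CPM. Synm, synemin, which assembles with desmin, averaged 4.51 ± 0.21 and 3.79 ± 0.72 CPM, and Cryab, a chaperone of desmin, 91.8 ± 11.2 and 91.4 ± 4.33 CPM.

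Gata3 and Ebf1 encode the transcription factors of the set. Gata3 lies on chromosome 2, 9857078 to 9890034, minus strand, is needed for mesangial cells and also marks the collecting duct. Its libraries were at 5.26, 6.69 and 7.01 CPM in the wild-type libraries and at 6.26, 4.45 and 4.85 CPM in knockout, with overlap and with wild-type library 0 lower than its group. The log2 fold change was −0.28 ± 0.18 (SE; edgeR adjusted p = 0.648), and leaving out knockout library 0 gave −0.43 and knockout library 1 −0.18. By GENCODE, 2 other genes of the deposited table overlap Gata3, which held 67 to 141 fragments. Of these, 4930412O13Rik, on the opposite strand, held 37 to 72 fragments, and 9230102O04Rik, on the same strand, held 9 to 20. The locus that the authors give for Gata3 ends at 9878600 and overlaps no other gene of their table. Whether neighbouring genes add to the Gata3 count was not tested. The summed CPM of 10 collecting duct genes was 860 to 993 in wild type and 879 to 911 in knockout, and the part of those cells in the Gata3 value was not tested.

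Ebf1, early B cell factor 1, acts in stromal and mural progenitors, B cells and fat, and lies on chromosome 11, 44617317 to 45008091, plus strand. Its libraries were at 6.25, 7.02 and 6.81 CPM in the wild-type libraries and at 5.92, 5.38 and 4.58 CPM in knockout, without overlap. The log2 fold change was −0.34 ± 0.14 (SE; edgeR adjusted p = 0.599). The fat gene Adipoq held 3 to 38 fragments and was highest in knockout library 2, in which Ebf1 was lowest. Of the EBF and GATA relatives and their partners, all 8 tested had a lower mean, beside 51.7% of all genes. Their levels were low, and the median log2 fold change was −0.37. Gata5 had the smallest p (log2 fold change −0.90 ± 0.53, SE; edgeR adjusted p = 0.634), with 0.0665 to 1.09 CPM in the 6 libraries. Ebf2 and Ebf3 held 0 to 4 and 4 to 7 fragments and were not tested.

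Serpine2 encodes protease nexin-1, a secreted inhibitor of thrombin and plasminogen activators that mesangial cells release. It lies on chromosome 1, 79794197 to 79861180, minus strand. Wild-type libraries were at 28.8, 19.8 and 20 CPM and knockout libraries at 18.8, 14.2 and 18.1 CPM. Wild-type library 0, the library with high injury genes, was far above the others, and knockout library 1 was the lowest. The log2 fold change was −0.42 ± 0.16 (SE; edgeR adjusted p = 0.599), and without wild-type library 0 it was −0.22. Lrp1, the receptor that clears complexes of serpins with proteases, averaged 90.0 ± 19.2 CPM in wild-type kidneys and 70.4 ± 3.92 CPM in knockouts (SD, n = 3). Of the target proteases, Plau, urokinase, averaged 667 ± 120 and 816 ± 67.3 CPM (edgeR adjusted p = 0.599), and Plat, tissue plasminogen activator, averaged 83.1 ± 15.8 and 74.3 ± 9.61 CPM, with overlap between groups. Plaur, the urokinase receptor, averaged 2.72 ± 0.78 and 4 ± 0.21 CPM, and Serping1, another secreted serpin, 62.3 ± 9.39 and 46.7 ± 2.16 CPM. The groups did not overlap for Plau, Plaur and Serping1, and overlapped for Lrp1. Of 6 tested genes of this list, 2 were lower and 2 higher at an unadjusted p under 0.05, and 0 passed after adjustment by edgeR. Among all genes tested, 5.14% were lower at that unadjusted level, and the share that was higher was not computed.

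**Figure D2:**
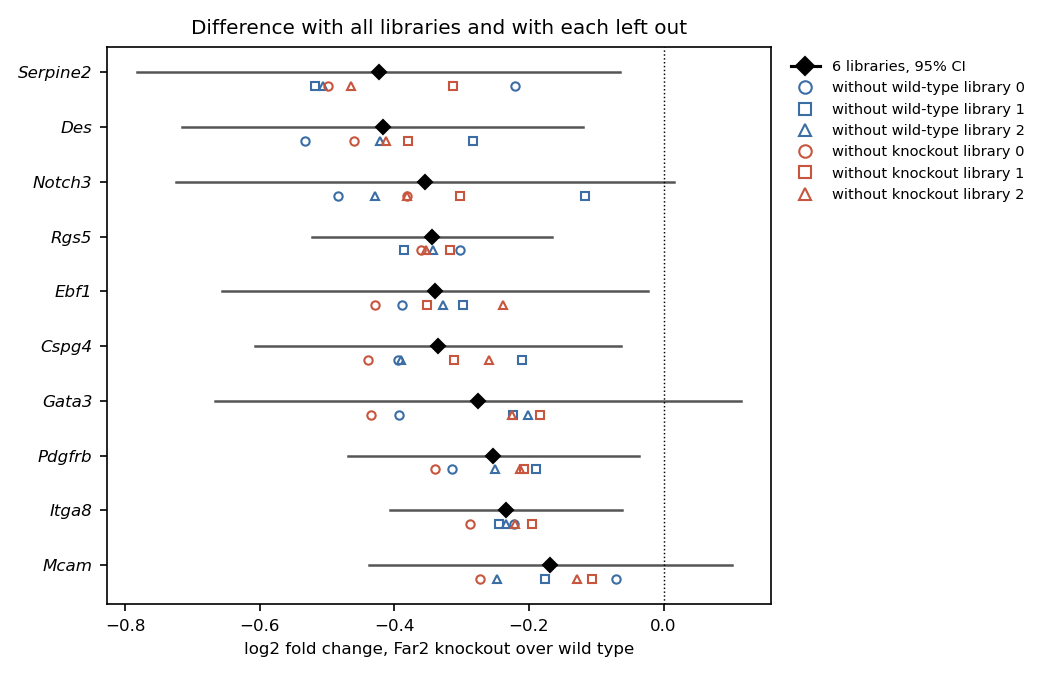
Log2 fold change of each marker, knockout over wild type (horizontal axis), with all 6 libraries and its 95% confidence interval (black) and with each library left out (open symbols). Every point is below 0, and the values that lie nearest to it are Mcam without wild-type library 0 (−0.07) and Notch3 without wild-type library 1 (−0.12).

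Per length, Rgs5 was the most abundant of the 10, with a mean of 18.5 FPKM over the 6 libraries (15.4 to 22.4), and was above the next marker, Serpine2, in every library without overlap of their ranges. Serpine2 followed at 9.46 FPKM, Itga8 at 6.27, Pdgfrb at 6.12, Mcam at 4.71 and Des at 4.19, each overlapping its neighbour in range, though Serpine2 was above Itga8, and Pdgfrb above Mcam, in all 6 libraries. Des lay above Ebf1 (2.29 FPKM) in all 6 libraries without overlap. Ebf1, Cspg4 at 2.28 and Gata3 at 1.96 were close together, and Notch3 was lowest at 1.29 FPKM. The span from Notch3 to Rgs5 was 14.4-fold. Among all genes tested, Rgs5 was at percentile 76.1 of mean FPKM and Notch3 at percentile 19.7.

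**Figure D3:**
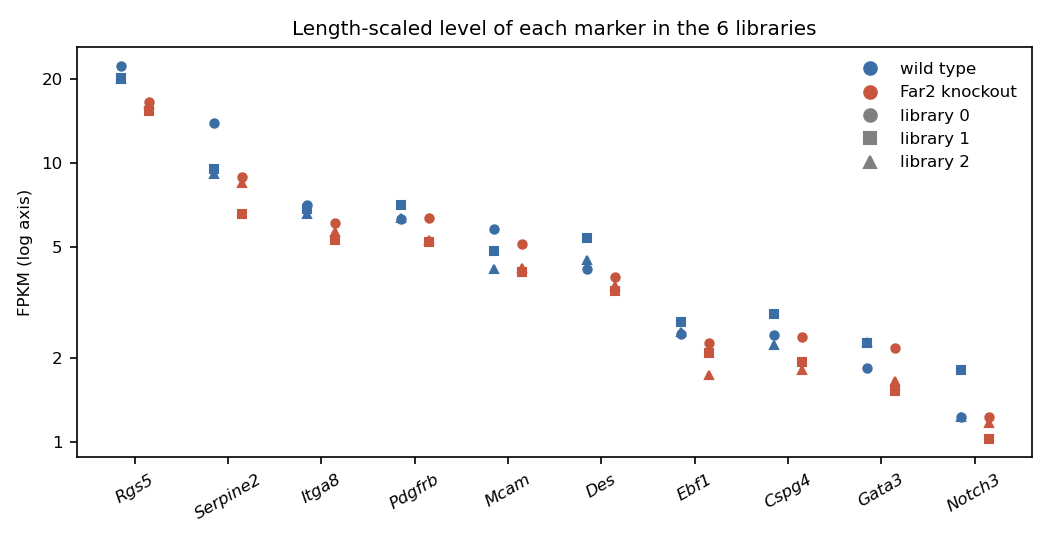
FPKM of each marker (vertical log axis) in the 6 libraries, ordered by the mean, with wild type in blue and Far2 knockout in red. Rgs5 stands above the others at 15.4 to 22.4 FPKM, and Notch3 is lowest at 1.03 to 1.82 FPKM.

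Correlations between the markers were positive over the 6 libraries and mixed in sign after the group means were taken out. Over the 6 libraries the Pearson correlation of log2 CPM was positive for all 45 pairs, with a median of 0.73 and a range from 0.22 for Notch3 with Serpine2 to 0.94 for Pdgfrb with Cspg4. These points share the genotype and the library. After the group means were taken out, 30 of 45 pairs were positive, with a median of 0.39. Pdgfrb with Gata3 and Notch3 with Des then stood at 0.92, while Rgs5 stood at −0.66 with Notch3 and −0.65 with Des. Wild-type library 1 was the highest of all 6 for 5 markers and wild-type library 0 for 4. Knockout library 1 was the lowest for 8 markers and knockout library 2 for 2, and knockout library 0 was the highest of its group for 9. The deepest library thus held the most markers at their highest and the shallowest the most at their lowest, and the part of depth was not tested. Wild-type library 2, at 15843181 fragments, was also shallow and was the lowest of its group for 1 marker.

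Among the other 14344 genes tested, those most like the mean of the standardised markers over the 6 libraries were Klf2 (Pearson r = 0.995), Simc1 (0.994), Anp32b (0.993), Iqce (0.989) and Rab7 (0.987). Klf2, a transcription factor that blood flow induces in endothelium, was at 4.37, 5.45 and 4.67 CPM in the wild-type libraries and at 3.76, 2.66 and 2.70 CPM in knockout. Rab7, a GTPase of late endosomes, averaged 75.1 ± 0.72 and 70.1 ± 1.37 CPM (SD, n = 3), while its deposited FPKM was 115 ± 6.69 in wild type and 116 ± 1.78 in knockout. With 6 points, 255 genes had an r above 0.9.

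A wider list of 24 mesangial and pericyte genes that holds none of the 10 had a median nearer to 0, a difference between lists that was not tested. Of 21 tested, 13 were lower and 8 higher in knockout, with a median of −0.08. The summed level was 379 to 386 CPM in wild type and 367 to 386 CPM in knockout, of which Anpep, also a brush border enzyme of the proximal tubule, made up 134 and 135 CPM on average. Agtr1a, the angiotensin receptor of mesangial cells, averaged 43.2 ± 1.57 CPM in wild-type kidneys and 42.3 ± 4.36 CPM in knockouts (SD, n = 3). Abcc9, a pericyte potassium channel subunit, averaged 34.1 ± 3.63 and 32.3 ± 4.25 CPM, and Tbx2, a stromal transcription factor, 39.2 ± 4.18 and 39.7 ± 3.45 CPM. Those with an unadjusted p under 0.05 were Foxc2, at 2.24 ± 0.39 and 1.41 ± 0.30 CPM, and Thy1, at 1.93 ± 0.65 and 1.16 ± 0.25 CPM, both lower in knockout with adjusted p = 0.599 by edgeR. Without overlap between groups, 3 of the 21 were lower, against 6.96% of all genes, and 1 was higher. The higher gene was Foxd1, at 0.54 ± 0.075 and 0.72 ± 0.092 CPM (edgeR adjusted p = 0.718). Art3 and Kcnj8 were higher with overlap, at log2 fold changes of 0.32 and 0.22.

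Marker lists of neighbouring cell types were summed in the same way. Of all genes tested, 51.7% had a lower mean in knockout, the background for the counts of these lists and of those in the next paragraph. The summed CPM of the 10 markers was 222, 232 and 216 in wild type and 199, 169 and 177 in knockout, with no overlap. For 13 vascular smooth muscle genes the sums were 305, 371 and 372 in wild type and 319, 282 and 300 in knockout. All 12 tested genes had a lower mean, with log2 fold changes from −0.445 for Synpo2 to −0.004 for Pln (median −0.16). The groups did not overlap for 1 of the 12, Synpo2, against 6.96% of all genes. Synpo2, which binds actin at the dense bodies and Z-discs of muscle, was at 6.37 ± 0.16 CPM in wild-type kidneys and 4.68 ± 0.094 CPM in knockouts (SD, n = 3), and Myh11, smooth muscle myosin, at 50.2 ± 9.41 and 38.8 ± 6.01 CPM, while Acta2, smooth muscle actin, was at 44.8 ± 1.26 and 41.3 ± 5.63 CPM. The 4 renin cell genes summed to 60.2 to 95.1 CPM and 44.8 to 80.9 CPM, with Ren1 at 61.3 ± 19.5 and 51.8 ± 16.9 CPM. All 4 (Ren1, Akr1b7, Rgs4 and Crip1) had a lower mean, with a median log2 fold change of −0.54. Rgs4 is the same gene as in the RGS family above. Ren1 had a log2 fold change of −0.24 with overlap between groups (edgeR adjusted p = 0.782). Podocytes, which share the glomerulus with mesangial cells, summed to 463 to 567 and 431 to 499 CPM over 12 genes, with 11 lower and a median of −0.16. Cdkn1c had the smallest p among them (log2 fold change −0.28 ± 0.10, SE; edgeR adjusted p = 0.599).

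Endothelial genes, 14 in all, were lower for 7 and higher for 7, with a median of −0.01, and summed to 670 to 797 CPM in wild type and 671 to 738 CPM in knockout. Pecam1 averaged 73.1 ± 4.08 and 73.5 ± 2.97 CPM (SD, n = 3), and Eng, a TGF beta co-receptor, had the smallest p (log2 fold change −0.22 ± 0.095, SE; edgeR adjusted p = 0.599). Of 13 fibroblast genes 12 were lower, with a median log2 fold change of −0.47, beside −0.34 for the 10 markers. Their sums were 430, 313 and 314 CPM in wild-type kidneys and 320, 281 and 299 CPM in knockouts. Col1a1, a fibrillar collagen chain, averaged 7.15 ± 2.68 and 4.05 ± 0.91 CPM. The macrophage sums were 472, 284 and 262 CPM in wild-type kidneys and 219, 290 and 288 CPM in knockouts over 11 genes (Adgre1 was not analysed here), and those of 12 tubular injury genes 1593, 784 and 797 CPM and 900, 901 and 779 CPM. All 11 macrophage genes had a lower mean, with a median log2 fold change of −0.325. Of 9 tested tubular injury genes, 7 were lower and 2 higher, with a median of −0.96. In these 3 lists wild-type library 0 was the highest of all. Proximal tubule genes were higher in knockout for 10 of 12, with sums of 39852 to 47905 CPM and 44576 to 48246 CPM. Fat genes had sums of 41.7, 28.7 and 36.1 CPM in wild-type kidneys and 44.3, 40.1 and 81.3 CPM in knockouts, and all 5 tested had a higher mean in knockout. Knockout library 2 was the highest of the 6 for each of these 5 genes. Plin1, a lipid droplet protein, was at 2.05 CPM there, at 0.399 CPM in both other knockout libraries and at 0.0949 to 0.844 CPM in wild type. Fabp4, a fatty acid binding protein, was at 35, 27.5 and 30 CPM in wild-type libraries and at 40, 37.5 and 48.4 CPM in knockout, without overlap (edgeR adjusted p = 0.599). B cell sums were 2.28 to 6.25 and 1.76 to 6.52 CPM. No gene of these lists was at 0 in all libraries, none passed edgeR's test after adjustment, and the part of other cell types in the marker values was not tested. Without wild-type library 0 the median log2 fold change of the 10 markers was −0.35, and 8 of them had an unadjusted p under 0.05. Without knockout library 2 the median was −0.25, and 4 had an unadjusted p under 0.05. The share of all genes was not computed for these fits.

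**Figure D4:**
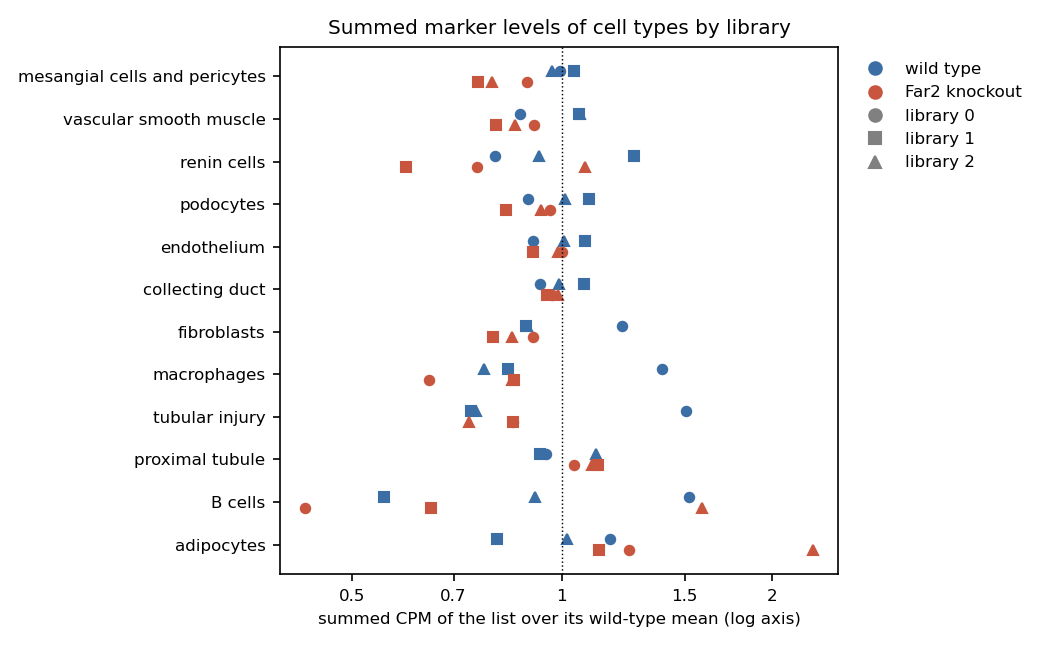
Summed CPM of each cell type list divided by its wild-type mean (horizontal log axis) in wild-type (blue) and Far2 knockout (red) libraries. The mesangial cell and pericyte markers are apart between groups, at 216 to 232 CPM against 169 to 199 CPM, while fibroblast, macrophage and tubular injury sums are highest in wild-type library 0 and the fat gene sum in knockout library 2 (81.3 CPM).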

How the data were processed

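Per the labels' protocols, total RNA of 6 kidneys was made into stranded libraries after ribosomal RNA was taken out. Cuffdiff, Cufflinks 2.2.1, SAMtools 1.2, Bowtie2 2.2.3, TopHat2 2.0.13, cutadapt 1.2.1 and mm10 are listed, without roles, in the submitters' processing notes. Neither the gene models nor the strand setting is given in the sources used here. For each gene and library the authors deposited an FPKM and an estimated count of fragments, and, per the file headers, the log2 fold change, p-value and q-value of each gene. A further table, of group means, was left out. Each library was taken as 1 mouse. Between libraries of the same genotype the variance was 5.99 to 23.3 times that of counting, so none was treated as a repeat.

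Estimated counts were rounded, and genes with low counts were removed by filterByExpr. After TMM scaling, edgeR 4.0.16 was used for the test (quasi-likelihood F, two-sided, no covariates, Benjamini-Hochberg adjustment over 14354 genes) in R 4.3.3. Each standard error is the size of the log2 fold change over the square root of F. The biological coefficient of variation was 10.1%. Alternatives used DESeq2 1.42.0 and limma 3.58.1, the latter also on log2(FPKM + 1) and log2(FPKM + 0.1). The test was tried on simulated data. Counting intervals cover counting error only. The members and the 19 companion lists were chosen with earlier results of these data known. Named genes are the 10 markers, a fixed set of ligands, receptors and partners, 5 genes by correlation, and first genes of the cell type lists. From each list, up to 3 genes with an unadjusted p under 0.05, or else the 1 with the smallest p, were also picked. Of these picks, the values of Mylk, Crip1, Col1a2, Meg3, Itgam, C3, Cd44, Aqp3, Cd22 and Slc5a2 are not given here. Rgs2, Rgs3, Cryab, Plat, Plau, Anpep, Agtr1a, Abcc9, Tbx2, Foxd1, Art3, Kcnj8, Adipoq, Ucp1 and Pln were added after their values were seen. Plots and summaries were made in Python 3.11.15. Gene positions came from GENCODE on GRCm38, the assembly that mm10 names.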

Additional observations from a re-analysis of the deposited data

How the results depend on the processing

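All 10 markers kept a negative log2 fold change under each of the 15 alternatives run for them, and no marker passed the adjusted threshold in any (150 values; smallest adjusted p = 0.271, for Des without wild-type library 0). The number of all genes past the threshold was 0, and became 12 with DESeq2, and 1 each with no filter on low counts, with robust dispersion and with an adjusted p under 0.10; with a library left out it ranged from 0 to 1. The number of markers with an unadjusted p under 0.05 was 7, ranged from 3 to 8 with a library left out and from 5 to 8 under the other alternatives. The share of all genes at that level was not computed for the alternatives. The causes were not tested. The median log2 fold change of the markers was −0.34, with a range of −0.41 to −0.23 with a library left out. On log2(FPKM + 1) it was −0.22 and on log2(FPKM + 0.1) it was −0.28, and the reason for these smaller values was not tested. Markers lower without overlap between groups, counted after seeing the data, numbered 7 by CPM, against 6.96% of all genes. By the deposited FPKM they numbered 5, against 6.52%. RLE, upper-quartile and DESeq2 scaling moved the median of all genes by −0.02 to 0.01 on the log2 scale. No paired analysis was possible because the library numbers match no label. Depth limits Gata3 and Ebf1 most, with 67 to 148 fragments in each library.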
